A study of Mus musculus with 2 samples.

Results

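The transcription factor genes Wt1, Tcf21, Foxc2 and Lmx1b were examined in DNase-seq data from mouse kidney. They are 4 of the 21938 protein-coding genes of the GENCODE M21 annotation on mm10, and were chosen by name as regulators of podocytes. For each gene, the gene body and 50 kb on either side formed a window, and the 4 windows together spanned 532.254 kb. Within them lay 41 of the 124504 peaks of replicate 1 and 15 of the 68056 peaks of replicate 2. DNase-seq cuts nuclear DNA with DNase I, which reaches DNA that is not wrapped on nucleosomes, so that a peak marks accessible chromatin. The tissue was kidney of females of B6CASTF1/J, the hybrid of C57BL/6J and CAST/EiJ mice, aged 36 days. The labels describe 2 libraries as biological replicates of this 1 group, with no control and no second condition, and number the females separately while giving both the same donor entry. No allele or agent is named for either library, and differences between them measure only the spread of these 2 samples.

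Podocytes are the epithelial cells that wrap the capillaries of the glomerulus with interlocking foot processes and hold back plasma protein. Wt1 is a zinc finger factor needed to form the kidney and to maintain podocytes, and it is also active in mesothelium. Tcf21 is a basic helix-loop-helix factor of podocytes and of stromal progenitors. Foxc2 is a forkhead factor of podocytes, mesenchyme and lymphatic vessels. Lmx1b is a LIM homeodomain factor of podocytes, the dorsal limb and serotonergic neurons, and is mutated in nail-patella syndrome. Podocytes are a small share of the cells of a kidney. In such a bulk sample, few accessible cells and weak accessibility in each cell cannot be told apart.

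The labelled tissue was checked through promoter peaks, a peak within 1 kb of any annotated start of a gene. Of 8 proximal tubule markers, 7 had one in both libraries, as did 4 of 4 markers of the thick ascending limb, but also 3 of 4 neuronal genes, against 60.7% of all protein-coding genes. These counts therefore do not set kidney apart from another tissue. Replicate 2 had fewer peaks, and 223827 footprints against 375848 in replicate 1. A footprint is a short stretch inside accessible DNA that is protected from cutting. Read totals were not used here, since the sources do not give them.

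Each peak carries a height, the authors' value in the deposited peak file. Its scale is not stated, and within a library every height was a whole multiple of 1 step (within 0.02), of 0.00928 in replicate 1 and 0.0102 in replicate 2. Median heights over all peaks were 1.33 and 1.46. Overlapping peaks of the libraries were merged into sites, and a site with a peak in both libraries was called shared. The 4 windows held 41 sites, all with a peak in replicate 1, of which 15 were shared and 26 came from replicate 1 alone. Promoter sites of the members themselves numbered 6, promoter sites of other genes 3, and distal sites, over 1 kb from every annotated start, 32. Sites are numbered within each window in the order of their coordinates.

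**Figure D1:**
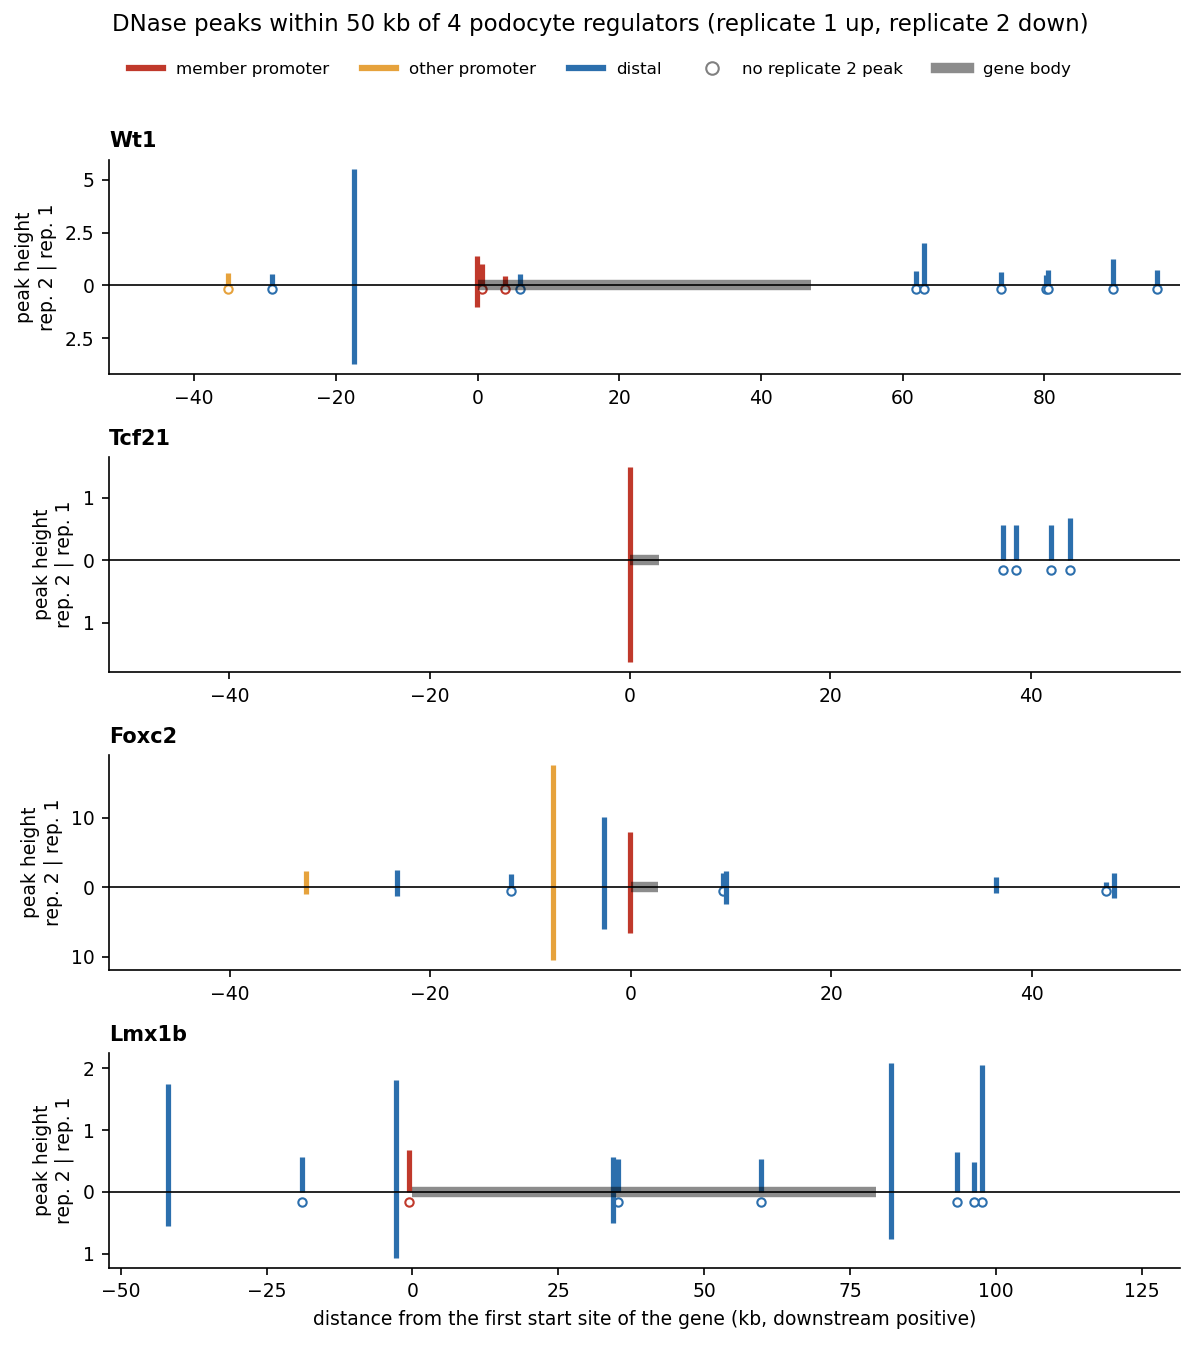
Peak heights (deposited value, vertical axis, scaled separately in each panel) against the distance of the site from the first start of the gene in kb, downstream positive. Lines go up for replicate 1 and down for replicate 2, open circles mark sites without a peak in replicate 2, and the grey bar is the gene body. Foxc2 has 8 sites in both libraries, Lmx1b 4, Wt1 2 and Tcf21 1.

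Promoters of 3 members, Wt1, Tcf21 and Foxc2, were accessible in both libraries, and that of Lmx1b in replicate 1 alone. Over all protein-coding genes 60.7% had a promoter peak in both libraries, 66.9% in replicate 1 and 60.9% in replicate 2. With 4 of 4 members in replicate 1 and 3 of 4 in replicate 2, the members were not set apart from that background. The heights spread widely among them. Foxc2 had a height of 7.95 in replicate 1 and 6.54 in replicate 2, which placed it at the 53.1 and 57.9 percentiles of genes with a promoter peak, near the medians of 7.34 and 5.35. Tcf21 had heights of 1.48 and 1.63, at the 12.8 and 15.4 percentiles. Wt1 had heights of 1.41 and 1.02, at the 12.1 and 7.35 percentiles. Lmx1b had a height of 0.687 in replicate 1, at the 4.61 percentile. Foxc2 therefore stood above the other members in both libraries by more than the libraries differed, while Tcf21 was above Wt1 in both libraries but, in replicate 1, by less than either gene differed between libraries.

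**Figure D2:**
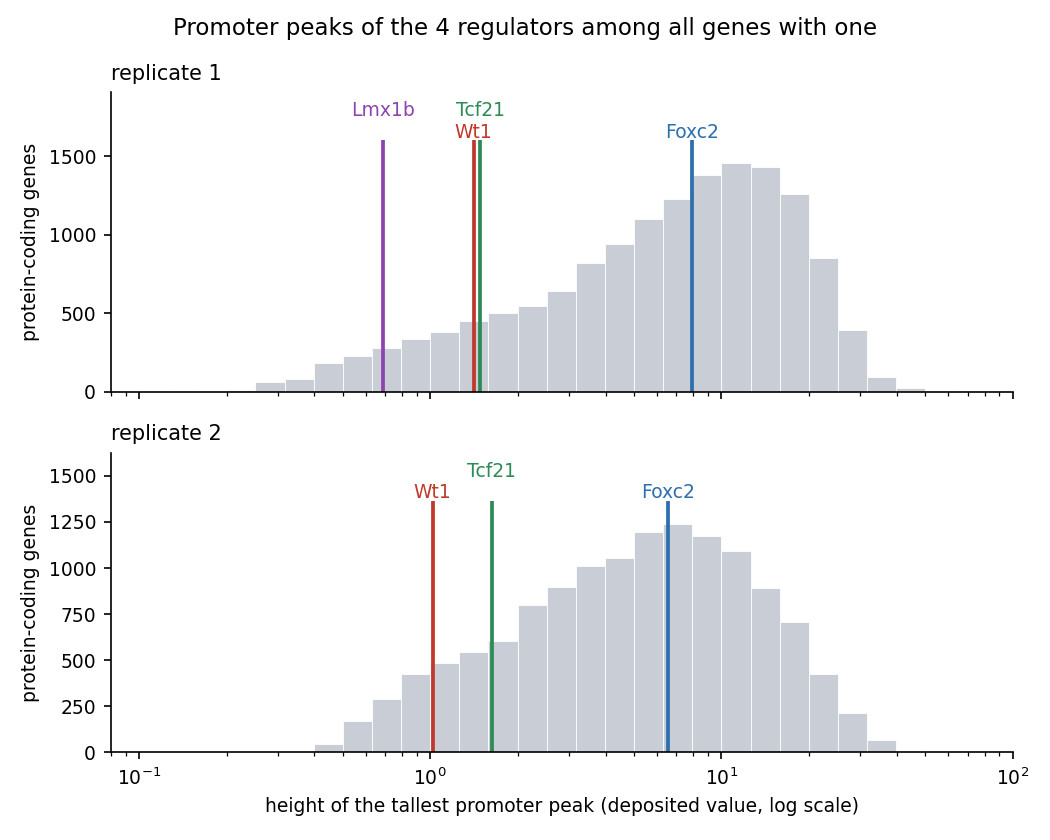
Number of protein-coding genes (vertical axis) by the height of their tallest promoter peak (deposited value, log axis) in replicate 1 (top) and replicate 2 (bottom), with the members as coloured lines. Foxc2 lies near the middle at 7.95 and 6.54, Wt1 and Tcf21 lie on the low side, and Lmx1b appears in replicate 1 alone at 0.687.

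Wt1 (ENSMUSG00000016458.14) lies on the plus strand at chr2:105126529-105173616 in mm10, with 8 annotated starts. Its antisense neighbour Wt1os starts 19 bp away on the other strand, so the promoter peak cannot be assigned to either gene alone. That peak, at chr2:105126361-105126608, spanned the start in both libraries and lay over the exon of Wt1os. Its lowest false discovery rate was 1.24e-15 in replicate 1 and 1.78e-05 in replicate 2. The bases upstream of the Wt1 start are shown because this is the site by which Wt1 counts as accessible. They run over chr2:105126361-105126528 on the plus strand, with capitals for the bases inside footprints of both libraries.
Wt1 promoter: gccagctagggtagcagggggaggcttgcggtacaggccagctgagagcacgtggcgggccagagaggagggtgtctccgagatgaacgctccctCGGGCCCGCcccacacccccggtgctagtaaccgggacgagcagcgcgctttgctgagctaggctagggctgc
The stretch in capitals overlaps a match to GGGCGGG, the letters of the SP and KLF family, on the minus strand. A footprint of replicate 1 covered that match in full and a footprint of replicate 2 in part. Over the series, 32.9% of shared promoter sites held GGGCGGG in 200 bp around their middle. Further member promoter sites of Wt1 occurred in replicate 1 alone, at chr2:105127061-105127300 in a coding exon with a height of 1.01 and at chr2:105130326-105130380 in intron 1 with a height of 0.455.

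The tallest site of the Wt1 window was not its promoter. A shared distal site at chr2:105108901-105109120, 17.518 kb upstream of the Wt1 start and within intron 1 of Wt1os, had a height of 5.50 in replicate 1 and 3.74 in replicate 2. These heights were at the 89.2 and 81.5 percentiles of all peaks of the respective library, and both exceeded the Wt1 promoter in the same library. The lowest false discovery rates were 3.10e-32 and 2.13e-20. The site held 4 footprints in each library, of which 3 matched. Footprints of the libraries were called matched when at least 50% of the shorter was covered by the longer. It is shown whole, on the plus strand, as the only distal site of Wt1 found in both libraries, with the same use of capitals.
Wt1 upstream site: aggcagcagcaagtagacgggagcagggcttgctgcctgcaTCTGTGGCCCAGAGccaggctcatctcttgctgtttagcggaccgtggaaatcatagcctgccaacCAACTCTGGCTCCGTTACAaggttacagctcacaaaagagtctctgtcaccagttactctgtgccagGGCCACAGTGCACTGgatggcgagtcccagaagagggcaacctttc
No other of the 10 distal sites of Wt1 was shared. The tallest of those found in replicate 1 alone, at chr2:105189421-105189620 and 62.992 kb downstream of the start, had a height of 2.01. In replicate 2 the deposited intervals reached a false discovery rate of 0.0190 there, and the wider peak set of that library held a peak of height 0.418. At chr2:105216081-105216280 replicate 1 had a height of 1.27 with 4 footprints, and the wider set of replicate 2 a peak of 0.723. Counted in the wider sets, Wt1 had 4 shared distal sites in place of 1. At the start of the neighbouring gene Gm11060, a promoter site at chr2:105091193-105091279 had a height of 0.575 in replicate 1 alone. A peak of 4.13 in replicate 1 and 2.61 in replicate 2 began only 0.064 kb beyond the downstream edge of the window. It lies within 1 kb of a start of the gene Them7, so it is a promoter peak by the rule used here. The last site inside, 1.108 kb from that edge, had a height of 0.724 in replicate 1 alone.

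Tcf21 (ENSMUSG00000045680.8) lies on the minus strand at chr10:22817281-22820174 and had the fewest sites. Its promoter site at chr10:22820101-22820340 was its only shared one. The height was 1.48 in replicate 1 and 1.63 in replicate 2, which came to 160 steps in both, and the lowest false discovery rates were 9.34e-09 and 4.04e-09. Unlike most sites, it was no lower in replicate 2. The site also lies in intron 1 of the antisense transcript Gm10824. The bases upstream of the start, chr10:22820175-22820340, are given on the minus strand, the strand of the gene.
Tcf21 promoter: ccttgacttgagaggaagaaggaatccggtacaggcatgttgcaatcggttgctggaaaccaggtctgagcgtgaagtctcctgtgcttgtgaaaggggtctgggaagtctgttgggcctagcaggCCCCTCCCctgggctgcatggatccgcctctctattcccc
Each library had 2 footprints in the site, and 1 matched, over the capitals. No other site of the Tcf21 window was shared. The 4 distal sites, 37.267 to 43.924 kb downstream of the start in intergenic sequence, had heights between 0.557 and 0.668 in replicate 1. In replicate 2 the deposited intervals listed 1 of these 4, with a lowest false discovery rate of 0.00849. The wider sets gave 2 shared distal sites.

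Foxc2 (ENSMUSG00000046714.7), a gene of a single exon on the plus strand at chr8:121116171-121118895, had the most accessible surroundings of the 4. Of its 11 sites 8 were shared, among them 5 of 8 distal ones. Its promoter site at chr8:121116021-121116220 had the same borders in both libraries, with lowest false discovery rates of 7.70e-40 and 3.33e-84. The bases upstream of the start, chr8:121116021-121116170 on the plus strand, are shown with capitals as above.
Foxc2 promoter: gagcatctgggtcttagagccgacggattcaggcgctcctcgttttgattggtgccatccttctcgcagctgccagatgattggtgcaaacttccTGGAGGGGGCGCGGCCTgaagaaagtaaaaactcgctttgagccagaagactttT
Replicate 1 had 3 footprints in the site and replicate 2 had 4, of which 2 matched. The first lies in the run of capitals upstream of the start. The second reaches across the start from the last base shown into the gene, where footprints of both libraries covered a match to CCAAT, the letters read by NF-Y. The site held 3 CCAAT matches on either strand, and 1 match to CAGCTG, an E-box of the kind that basic helix-loop-helix factors bind. Over the series, 27.4% of shared promoter sites held CCAAT and 13.2% held CAGCTG in 200 bp around their middle.

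The tallest distal site of all 4 windows lay 2.67 kb upstream of Foxc2, at chr8:121113381-121113620. It had a height of 10.2 in replicate 1 and 6.03 in replicate 2, at the 95.3 and 89.7 percentiles of all peaks. The height exceeded that of the Foxc2 promoter in replicate 1 and was below it in replicate 2, so their order is not settled by these libraries. With 5 footprints in each library and 4 matched, it held the most matched footprints of any site here. Its sequence is shown on the plus strand for that reason.
Foxc2 upstream site: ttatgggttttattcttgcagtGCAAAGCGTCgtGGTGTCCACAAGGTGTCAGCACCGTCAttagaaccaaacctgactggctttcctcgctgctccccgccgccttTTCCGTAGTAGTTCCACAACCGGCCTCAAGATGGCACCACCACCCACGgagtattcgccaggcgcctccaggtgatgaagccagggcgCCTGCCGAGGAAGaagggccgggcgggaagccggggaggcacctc
Of its 240 bases, 98 lay in footprints of both libraries. They include a match to TGCTGAC, the letters read by MAF factors, on the minus strand, covered by a footprint in each library. In 200 bp around the middle, these letters were in 1 of the 10 shared distal sites of the windows. Over the series they were in 6.47% of such sites. The other shared distal sites of Foxc2 were lower. At chr8:121125561-121125780, 9.50 kb downstream of the start, heights were 2.30 and 2.38, and at chr8:121092781-121092940, in an exon of Mthfsd, they were 2.51 and 1.24. Sites 36.41 and 48.124 kb downstream had heights of 1.48 and 2.12 in replicate 1 and of 0.856 and 1.51 in replicate 2. A site of replicate 1 alone with a height of 2.04, at chr8:121125305-121125480, borders the shared one at 9.50 kb. There replicate 2 had no peak in either set, although its intervals reached a false discovery rate of 2.45e-10.

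Neighbouring genes share the Foxc2 window. The tallest site in it, with heights of 17.6 and 10.5, was the promoter of Mthfsd, 7.78 kb upstream of Foxc2. A site with heights of 2.41 and 0.876 lay within 1 kb of starts of Foxf1, another forkhead gene, and of the non-coding gene Fendrr. At Foxl1, the forkhead gene downstream, neither library had a promoter peak. Every site of this window lies in intron 1 of the readthrough transcript Gm20388. A distal site is therefore listed here by its distance and is not assigned to Foxc2.

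Lmx1b (ENSMUSG00000038765.13) lies on the minus strand at chr2:33560965-33640511, with 3 annotated starts. Its promoter site at chr2:33641086-33641240 was found in replicate 1 alone, with a height of 0.687 and a lowest false discovery rate of 2.04e-05. In replicate 2 no interval was listed there. The site lies 0.652 kb upstream of the first GENCODE start and spans the curated RefSeq start at 33641098, 587 bp upstream of it. It also spans the start of the antisense gene C130021I20Rik, so the peak cannot be assigned to either. Under a narrower promoter window around the GENCODE starts the site no longer counted as a promoter of Lmx1b.

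Of the 10 distal sites of Lmx1b, 4 were shared, and none of these 4 was left when only the stronger 50% of peaks of each library were used. The site at chr2:33643181-33643380, 2.77 kb upstream of the first GENCODE start and in an exon of C130021I20Rik, had heights of 1.81 and 1.07. The site at chr2:33558341-33558500, intergenic and 82.09 kb downstream of the start, had heights of 2.09 and 0.754. The site at chr2:33682355-33682520, 41.926 kb upstream, had heights of 1.75 and 0.550. Within the gene, a site in intron 2 at chr2:33605984-33606186 had heights of 0.566 and 0.509. The first of these ranked highest over both libraries and is shown whole on the plus strand.
Lmx1b upstream site: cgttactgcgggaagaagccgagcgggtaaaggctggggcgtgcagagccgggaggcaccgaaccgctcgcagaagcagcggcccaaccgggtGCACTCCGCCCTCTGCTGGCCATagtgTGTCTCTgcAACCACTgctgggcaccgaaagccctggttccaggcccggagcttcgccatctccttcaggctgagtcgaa
It held 2 footprints in replicate 1 and 4 in replicate 2, with 2 matched. The tallest site of replicate 1 alone, at chr2:33542841-33543000, had a height of 2.05, and the wider set of replicate 2 held a peak of 0.428 there.

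Counted over all members, 10 of 32 distal sites were shared, which is 31.3% of the distal sites of replicate 1 against 46.7% over the whole series. Of the promoter sites in the windows 5 of 9 were shared, against 67.5%. For all sites together the share was 36.6% (15 of 41, Wilson 95% interval 23.6 to 51.9%, covering counting error only), against 52.6%. This order turned with the window, since with flanks of 10 kb the share was 56.3%. Over protein-coding genes the median number of shared distal sites in such a window was 3. Tcf21 with 0, Wt1 with 1, Lmx1b with 4 and Foxc2 with 5 were at or above 24.3%, 37.4%, 68.1% and 75.3% of genes. Per 100 kb, to allow for gene length, Tcf21 had 0, Wt1 0.680, Lmx1b 2.23 and Foxc2 4.87, against a median of 1.90. In replicate 1 by itself the order was different, with 10 distal sites each for Wt1 and Lmx1b, 8 for Foxc2 and 4 for Tcf21 against a median of 6.

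Whether a site was shared went with its height in replicate 1. Of 21 window sites below a height of 1 only 1 was shared (4.76%), against 14.2% of such sites over the series. Between 1 and 2 it was 5 of 8 (62.5%) against 53.8%, and from 2 upward 9 of 12 (75%) against 94.1%. The 3 unshared sites in the top class, in the windows of Wt1, Foxc2 and Lmx1b, had heights of 2.01, 2.04 and 2.05. The 26 sites of replicate 1 alone had a median height of 0.631. Replicate 2 had an interval listed below a false discovery rate of 0.05 at 10 of these 26, against 47.1% of such sites over the series, and a peak of the wider set at 7, against 39.8%.

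For shared sites, heights were compared as the log2 ratio of replicate 2 to replicate 1. The median over the 15 sites was -0.75 (SD 0.54, range -1.67 to 0.13), against -0.61 over all shared sites with quartiles of -0.90 and -0.33. With flanks of 10 kb the median of the windows was -0.47, above that of the series. The Tcf21 promoter, at 0.13, and the Foxc2 site 9.50 kb downstream, at 0.05, were the only ones taller in replicate 2. The lowest ratio, -1.67, belonged to the Lmx1b site 41.926 kb upstream. Bases in deposited intervals with a false discovery rate up to 0.001 also put Foxc2 first. Foxc2 had 31.3 such bases per kb in replicate 1 and 25.3 in replicate 2, Wt1 21.1 and 3.28, and Lmx1b 11.5 and 3.23. Tcf21 had the fewest in both libraries, with 2.59 in replicate 2. Over the series there were 13.2 and 7.13 per kb. Foxc2 alone exceeded the series in both libraries, in a window that includes the promoter of Mthfsd.

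**Figure D3:**
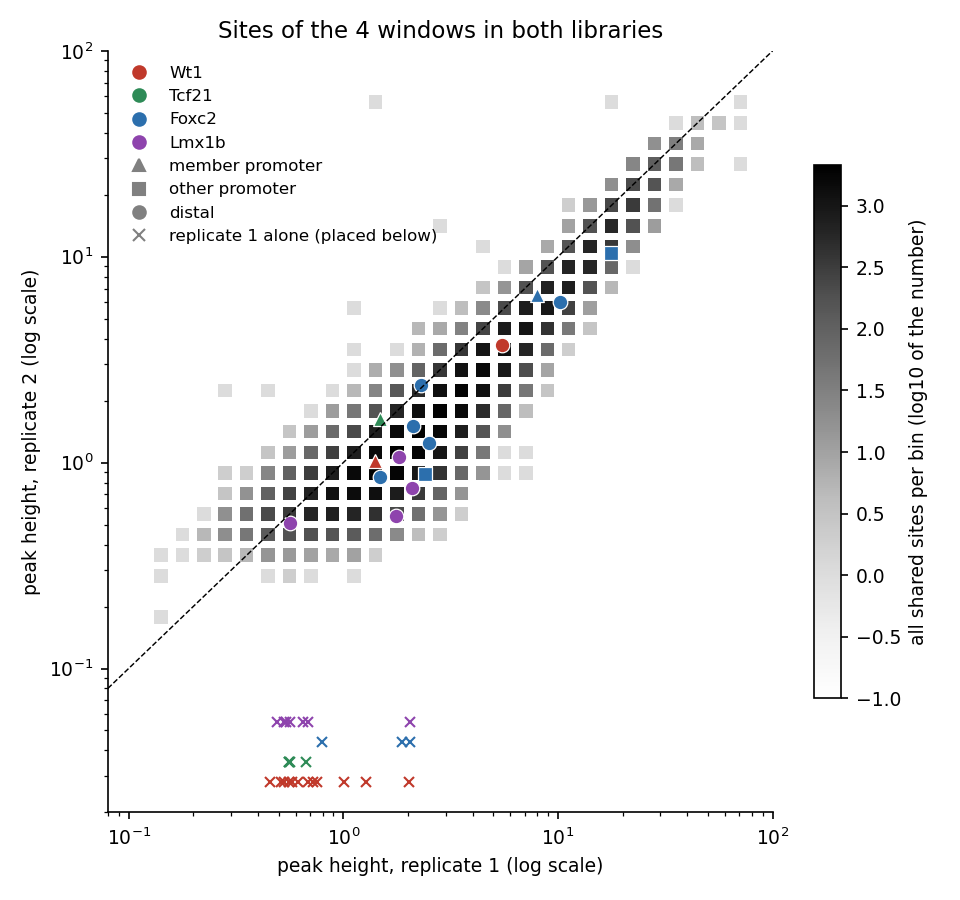
Peak height in replicate 1 (horizontal, log axis) against replicate 2 (vertical, log axis). Grey squares count all shared sites per bin, coloured symbols are sites of the 4 windows, crosses along the bottom are sites of replicate 1 alone without a value on the vertical axis, and the dashed line marks equal heights. The 15 shared sites lie among the shared sites of the series, and most crosses lie below a height of 1.

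Footprints followed the sites. The windows held 112 footprints in replicate 1, 90 of them in sites, and 52 in replicate 2, 48 of them in sites. Matched footprints numbered 33, with 20 in the Foxc2 window, 6 each in those of Wt1 and Lmx1b, and 1 in that of Tcf21. By kind of site, 22 were in distal sites, 4 in promoters of the members, 4 in promoters of other genes and 3 outside sites. Of the 15 shared sites 14 held a matched footprint, against 77.9% over the series. The exception was the site in intron 2 of Lmx1b. Among the 26 sites of replicate 1 alone, 22 held a footprint of that library and 4 a matched one. Such sites were not counted over the series, so whether these 2 counts are particular to the windows was not tested. Footprints carry no score of their own in the deposited files, so that only their presence could be compared.

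**Figure D4:**
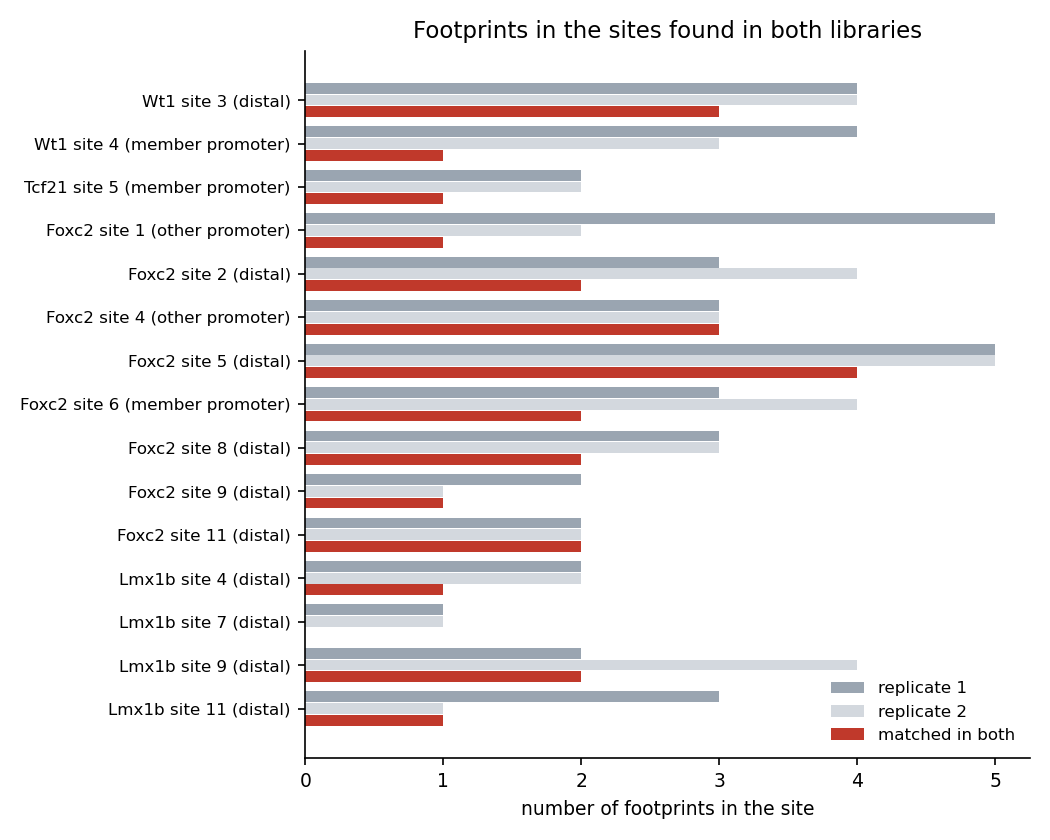
Number of footprints (horizontal axis) in each of the 15 shared sites, in replicate 1, in replicate 2 and matched in both. The Foxc2 upstream site (Foxc2 site 5) has 5, 5 and 4, and Lmx1b site 7 is the only one with no matched footprint.

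Sequences of the sites were searched for short consensus letters on both strands, in 200 bp around the middle of each site. After the sequences had been seen, a pattern with part of the letters recognised by the insulator protein CTCF was added, namely CCA, AG and GGC in this order with any 2 bases between them. Searched over the whole of each site, also a choice made after seeing the data, it occurred in 9 of the 41 sites, all distal. Among shared distal sites it was in 4 of 10, the Wt1 upstream site and 3 sites of the Lmx1b window, against 10.3% of shared distal sites over the series. Among distal sites of replicate 1 alone it was in 5 of 22, against 10.6%. The pattern was picked on these sites, so the counts are a description. Over whole sites GGNGGCAG, other CTCF letters that were searched, was in 1 of the 10 and 2 of the 22, against 12.1% and 8.08%. The SP and KLF letters GGGCGGG were in 3 of the 10 and 4 of the 22, against 5.47% and 2.43%. In the Wt1 upstream site, printed whole above, the match lies near the 3′ end at chr2:105109101-105109112. It reaches past the border of the 200 bp window, and lies outside the footprints of both libraries. For the 8 sites with a match in the 200 bp window, excerpts of 40 bases are given on the strand of the match, with the pattern in capitals. They cover chr2:105188438-105188477 (minus strand), chr2:105189505-105189544 (minus), chr10:22781642-22781681 (plus), chr10:22782851-22782890 (plus), chr8:121104222-121104261 (plus), chr2:33558430-33558469 (minus), chr2:33643267-33643306 (minus) and chr2:33682401-33682440 (plus), in the order of the lines.
Wt1 site 8: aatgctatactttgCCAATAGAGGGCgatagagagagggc
Wt1 site 9: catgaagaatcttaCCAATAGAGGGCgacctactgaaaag
Tcf21 site 3: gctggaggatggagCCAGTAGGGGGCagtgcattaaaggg
Tcf21 site 4: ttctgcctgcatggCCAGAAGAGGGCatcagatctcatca
Foxc2 site 3: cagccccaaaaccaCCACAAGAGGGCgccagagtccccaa
Lmx1b site 4: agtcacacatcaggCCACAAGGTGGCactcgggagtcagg
Lmx1b site 9: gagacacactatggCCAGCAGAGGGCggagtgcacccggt
Lmx1b site 11: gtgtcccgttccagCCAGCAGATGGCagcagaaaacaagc
The Wt1 sites 8 and 9, 1067 bp apart, held the same 12 letters in capitals. A footprint of replicate 1 covered the pattern in 6 of these 8 sites, and a footprint of replicate 2 in 2, Foxc2 site 3 and Lmx1b site 9. Covered matches were not counted over the series, so whether these counts are particular to the windows was not tested. Foxc2 site 3 had no peak of the stricter set in replicate 2, where its height in the wider set was 0.672.

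Letters read by the members' own families were counted in 200 bp around the middle of each site, which reaches past the borders of narrow sites. The forkhead letters GTAAACA and the homeodomain letters TAATTA were in 0 of the 10 shared distal sites, against 3.49% and 4.09% over the series. The letters GNGTGGGNG of the WT1 and EGR factors were in 1, an Lmx1b site, against 6.77%, and CAGCTG was in 2, both of Lmx1b, against 19.4%. Among the 22 distal sites of replicate 1 alone, TAATTA was in 4, against 6.11%, and GTAAACA in 1, against 3.68%. There CAGCTG was in 5, against 15.6%, and GNGTGGGNG in 2, against 5.46%. Within the borders of the sites TAATTA was in 3 of these 22, against 4.73%, and the other counts stayed the same. A missing match says only that these letters are not in the window searched.

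Other podocyte genes were read by the same promoter rule. Of 12 podocyte markers, 12 had a promoter peak in replicate 1 and 8 in both libraries, against 66.9% and 60.7% of all protein-coding genes. Cd2ap, an adaptor of the slit diaphragm, had the tallest, with 12.8 and 8.17. Vegfa, the growth factor that podocytes supply to the glomerular capillaries, had 7.95 and 5.35. Nphs1, which encodes nephrin of the slit diaphragm, had a height of 0.510 in replicate 1 and none in replicate 2, as had Ptpro with 0.408 and Plce1 with 0.492. Over the list the median height in replicate 1 was 4.72, between the 7.95 of Foxc2 and the lower values of the other members.

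Of 12 other regulators linked to podocytes, 11 had a promoter peak in both libraries, against 60.7% of all protein-coding genes. Klf6 had heights of 23.5 and 26.3, Klf15 of 16.4 and 14.4, and Wwtr1, a partner of TEAD factors, of 14.8 and 10.6. Foxd1, a forkhead factor of stromal progenitors and podocytes, had 1.64 in replicate 1 alone. Many of these genes are active in other kidney cells as well.

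Each member has a relative for comparison. Foxc1, the close paralogue of Foxc2, had promoter heights of 6.37 and 5.77 beside 7.95 and 6.54 for Foxc2. Egr1, which reads letters like those of Wt1, had 14.4 and 9.19. Lmx1a had 0.974 in replicate 1 alone, as Lmx1b had 0.687. Msc, a relative of Tcf21, had no promoter peak.

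Because the members are active outside podocytes, promoter peaks of other cell types were counted beside them. Of 6 mesothelial markers 1 had a promoter peak in both libraries (Krt7, which other epithelia also express, with 3.58 and 2.69), and Upk3b, Upk1b and Lrrn4 had none in either. Of 10 stromal and mural markers 5 had one in both libraries, between 1.22 and 6.37 in replicate 1, and Lum and Ren1 had none. Of 4 lymphatic markers 1 did, Prox1 with 2.86 and 2.29, and Lyve1 had none. All 6 markers of blood endothelium and 3 of 4 neuronal genes had one in both. Over all protein-coding genes the share with one in both libraries was 60.7%. The part of these cells in the members' peaks was not tested.

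**Figure D5:**
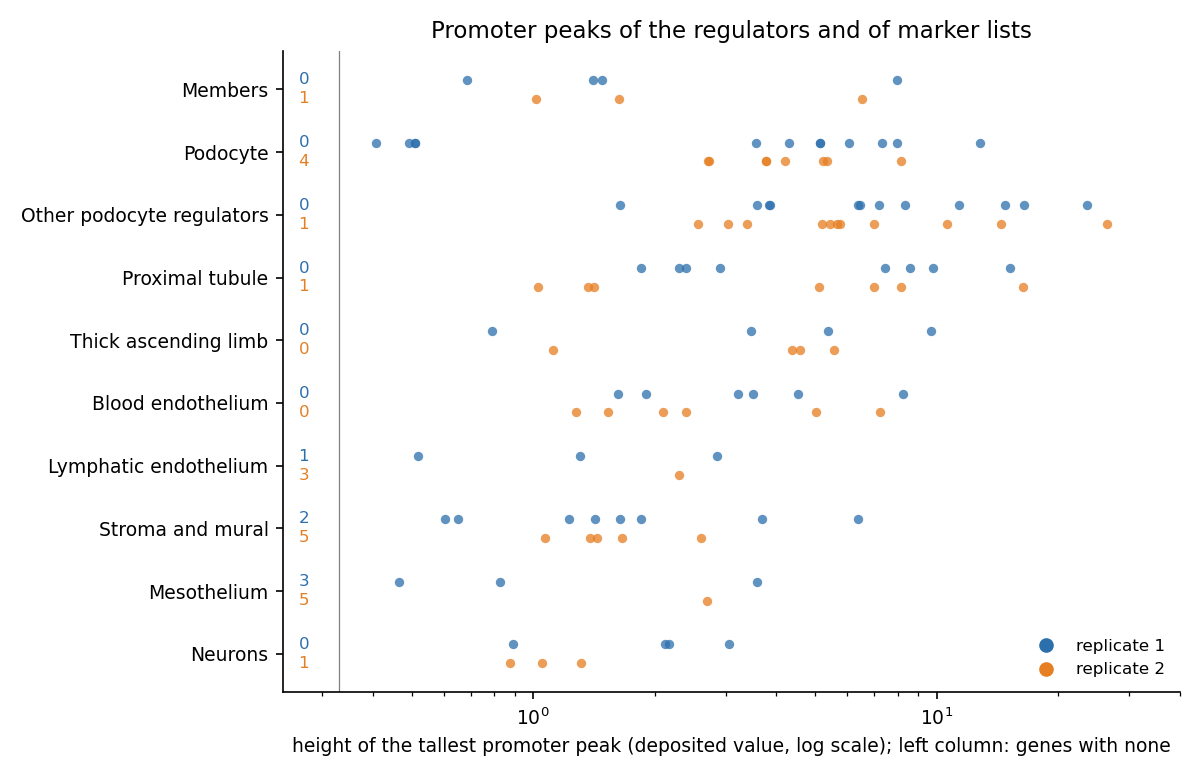
Height of the tallest promoter peak (deposited value, log axis) of each gene in 10 lists, in replicate 1 (blue) and replicate 2 (orange), with the number of genes without a peak in the left column. Members span 0.687 to 7.95 in replicate 1, and 4 podocyte markers near 0.5 have no counterpart in replicate 2.

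Starts of 17 other annotated genes lay in the windows. A promoter peak in both libraries was present at 5 of them, a peak of replicate 1 only at 3, and no peak at 9. All 5 lay in the windows of Wt1 (Wt1os) and Foxc2 (Mthfsd, Foxf1, Fendrr and the microRNA gene Gm27530). These are counts of genes, not of separate sites. Many of the 17 are not protein-coding, and the share over all annotated genes was not counted. Whether 5 of 17 is particular to the windows was therefore not tested. Foxf1, Fendrr and Gm27530 had the same site, and Wt1os had the promoter site of Wt1. Gm27308, counted under replicate 1 only, also had that shared Wt1 site. The replicate 2 peak of the site began over 1 kb from the start of Gm27308. By likeness of promoter height, distal sites and promoter footprints over the 2 libraries, the protein-coding genes nearest to Wt1 were Prkaa1, Artn and Xkr6, at standardized distances of 0.433, 0.451 and 0.491. Those nearest to Tcf21 were Klhl38, Adgrg2 and Fam78b (0.272, 0.327 and 0.378). Foxc2 was nearest to Tmem39a, Rnf43 and Ubox5 (0.113, 0.133 and 0.199), and Lmx1b to Myl2, Htr6 and Serpina3m (0.111, 0.141 and 0.202). No podocyte marker was among these 12 genes, but with 12 markers in 21938 genes almost any 12 genes would hold none.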

How the data were processed

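DNase-seq of kidney was deposited as interval files for 2 libraries, made by the authors from alignments to mm10, per the labels. The aligner and caller used were not given in the sources used here. In the deposited peak files each peak has a signal value, its height, in a stricter and a wider set, and the stricter one was used. The deposited interval files give a false discovery rate, used as a q-value without change, and list rates below 0.05. The deposited footprint files hold the value 0.01 in every row.

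Peaks overlapping by 1 base were merged into sites. Gene starts came from GENCODE M21, and sequences from the RefSeq copy of the same build. A site within 1 kb of any start was a promoter site. Footprints matched at an overlap of 50% of the shorter. Every promoter site, the tallest shared distal sites and the tallest sites of 1 library were named, together with fixed marker lists. Further site names were picked after their values were seen. With 1 group of 2 libraries no test between groups was possible, so all results are descriptions. The steps were tested on simulated data. Members, lists and motifs were chosen with earlier results of these data known. Parental alleles were not analysed here, and some genes of the lists are counted but not reported here by name. Python 3.11.15, numpy 2.4.6, scipy 1.17.1, pysam 0.24.0 and bedtools 2.31.1 were used.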

Additional observations from a re-analysis of the deposited data

How the results depend on the processing

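Promoter peaks were found for 3 members under every alternative, except that the stronger 50% of peaks left 2, without Wt1, and replicate 1 by itself gave 4. The 10 shared distal sites became 4 with the stronger 50% of peaks (0 for Lmx1b), 20 with the wider sets, 5 with flanks of 10 kb and 22 with flanks of 100 kb. Leaving out either replicate gave 10 to 32. Sharing of replicate 1 sites moved from 36.6% to 56.3% with flanks of 10 kb, across the 52.6% of the series. Matched footprints in sites, 30 as reported, came to 16 and 66 with flanks of 10 and 100 kb, to 1 when the same start and end were required, and to 48 to 90 in either library alone. Bases with a false discovery rate up to 0.001 in both libraries, 3746 as reported, came to 9606 with flanks of 100 kb and to 6171 below a rate of 0.05, and either library alone gave 3926 to 9413. Longer flanks, looser thresholds and a library alone admit more intervals by construction. The median log2 height ratio stayed below 0 under every alternative tried, but its order against the series turned. It was -0.75 as reported, below the -0.61 of all shared sites, and -0.47 and -0.52 with flanks of 10 and 100 kb. The stronger 50% of peaks and the wider sets gave -0.49 and -0.56, for which the series median was not recomputed. Of 72 values per member, 41 stayed within 1.5 times the reported one and 31 did not. No paired analysis was possible because there is 1 group. Read depth was not given, so whether a site without a peak in replicate 2 was closed there or too shallowly read was not tested.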

Other observations

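Outside the sites, the windows held 22 footprints in replicate 1 and 4 in replicate 2, of which 3 matched. Of these, 15 of the 22 and 1 of the 4 lay in peaks of the wider set. The Lmx1b window had 13 of the 22, and the Foxc2 window held 3 of the 4.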
